A study of Mus musculus with 12 samples.

Results

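The genes described here are 29 genes of cholesterol and fatty acid synthesis, chosen by symbol from the enzymes, regulators and one sterol carrier of both pathways, out of 24346 genes in the tables. All 29 were found, each had at least 1 FPKM (fragments per transcript length and sequencing depth) in at least 3 libraries, and all entered the fit of 11808 genes. Gene expression had been measured by bulk RNA-seq in tumour-associated macrophages sorted from Arg1-RFP mice, in which a red fluorescent protein reports Arg1, the gene of the arginine-cleaving enzyme arginase 1. The mice carried tumours of the mouse melanoma line B16F10 or of MC38, which derives from a mouse colon adenocarcinoma. All sorted cells were CD45+, CD11b+, F4/80+ and MHCII+, and lacked CD90.2, B220, NK1.1, Ly6G and Ly6C. The 12 libraries formed 4 groups of 3: RFP+ and RFP- cells from B16F10 tumours, and RFP+ and RFP- cells from MC38 tumours. No further allele, treatment, age, sampling time or tumour-free group is given in the labels, nor how the reporter allele was built or whether animals were pooled. Libraries are called by the numbers in their titles, which were 12, 11 and 3 in both gates of B16F10 and 1, 2 and 3 in both gates of MC38. Values below stand in that order.

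Cholesterol is built from acetyl units by way of mevalonate. Acetyl-CoA units are joined and reduced to mevalonate, which is turned into isoprenoids, then into squalene, and through ring closure and a series of demethylations, isomerisations and reductions into cholesterol. Fatty acids are built from the same acetyl units by acetyl-CoA carboxylase and fatty acid synthase, then lengthened by elongases and given a double bond by stearoyl-CoA desaturases. Transcription of both pathways is driven by the sterol regulatory element binding proteins, which SCAP escorts out of the endoplasmic reticulum when sterol is scarce and which INSIG proteins hold back when it is plentiful. In macrophages these enzymes run against cholesterol efflux, which the liver X receptors (LXR) switch on when sterols accumulate.

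The gates and the labelled cell type were checked first. Arg1 was 615, 642 and 916 FPKM in B16F10 RFP+ and 62.8, 56.2 and 125 FPKM in B16F10 RFP- cells, and 472, 553 and 394 against 56.04, 58.5 and 40.6 FPKM in MC38, so the gates did not overlap in either tumour. The 13 macrophage core genes, Csf1r and Adgre1 (the gene of F4/80) among them, were present in every library, but their summed level was 5960 to 14520 FPKM in the 6 B16F10 libraries and 30460 to 40310 FPKM in the 6 MC38 libraries. The 10 melanocytic genes (such as Pmel, Dct and Tyrp1, which make and package melanin) summed to 8194 to 10780 FPKM in the B16F10 libraries, both gates alike, and to 11.1 to 19.3 FPKM in the MC38 libraries. In the B16F10 libraries the level of a synthesis gene is therefore a level in RNA that contains melanocytic transcripts, and in such bulk RNA fewer cells of a type and less RNA per cell cannot be told apart. Total FPKM per library ran from 614875 to 815591. The smallest steps between low values show relative depth: with the deepest MC38 library as reference, a single read added 3.02 to 3.62 times the FPKM in B16F10 and 1 to 1.18 times in MC38, so the B16F10 values rest on fewer reads. The highest total and the most genes listed at 0 (10597) belonged to B16F10 RFP- 12, which was also the highest or lowest B16F10 library for many synthesis genes, as described below.

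Promoters were read for the sequence elements with which these genes are usually drawn: the sterol element that the regulators bind, the E-box CACGTG, and the CCAAT and GGGCGG boxes bound by NF-Y and Sp1, which work beside it. RefSeq (GRCm38.p6) gave the 250 bases before 31 starts of 23 of the 29 genes, and both strands were searched. The sterol element, read as AT followed by the core CACCCCAC, stood before 0 of the 31 starts and before 0.0731% of all 32851 starts in the table. The core alone, a motif added after the longer one had given no match, stood before 2 (6.45%, Acat2 and Hmgcs1) against 2.58% of all. CACGTG stood before 5 starts (16.1%, against 6.02%), CCAAT before 20 (64.5%, against 33.8%) and GGGCGG before 22 (71.0%, against 32.7%). A match describes letters and not a bound site, and the longer sterol element holds the shorter core. Only these exact letters were searched, so a near match counts as none. The Srebf2 window, for example, holds a stretch that differs from the longer element only in its last letter. A count of 0 therefore does not show that these starts lack a sterol element. The windows shown are those of Mvd, Ebp and Fasn, genes that the comparisons below turn on and that have a single start, 3 boxes and no annotated exon in the window, and of Hmgcs1, picked after its values were seen because its window holds the sterol core beside 3 CCAAT and 2 GGGCGG boxes. They lie at chr8:122443423-122443672 (minus strand), chrX:8193513-8193762 (minus strand), chr11:120824548-120824797 (minus strand) and chr13:119690101-119690350 (plus strand), GRCm38.p6, and are written 5′ to 3′ toward the start with the searched motifs in capitals (ATTGG and CCGCCC are CCAAT and GGGCGG read on the other strand).
Mvd: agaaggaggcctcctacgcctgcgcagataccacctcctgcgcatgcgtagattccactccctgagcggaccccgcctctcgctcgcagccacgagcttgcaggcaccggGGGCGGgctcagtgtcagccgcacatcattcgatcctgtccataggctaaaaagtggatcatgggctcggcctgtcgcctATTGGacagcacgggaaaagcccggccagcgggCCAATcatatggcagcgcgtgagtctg
Ebp: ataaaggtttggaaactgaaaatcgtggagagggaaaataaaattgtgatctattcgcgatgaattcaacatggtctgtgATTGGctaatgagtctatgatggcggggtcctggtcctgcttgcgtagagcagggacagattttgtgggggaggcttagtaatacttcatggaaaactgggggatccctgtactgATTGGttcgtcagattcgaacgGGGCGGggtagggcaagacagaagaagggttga
Fasn: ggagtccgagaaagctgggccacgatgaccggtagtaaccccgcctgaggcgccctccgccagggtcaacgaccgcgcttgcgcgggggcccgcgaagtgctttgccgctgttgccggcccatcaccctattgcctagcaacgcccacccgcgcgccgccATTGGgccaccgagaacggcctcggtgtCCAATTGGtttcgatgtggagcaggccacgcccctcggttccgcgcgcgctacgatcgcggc
Hmgcs1: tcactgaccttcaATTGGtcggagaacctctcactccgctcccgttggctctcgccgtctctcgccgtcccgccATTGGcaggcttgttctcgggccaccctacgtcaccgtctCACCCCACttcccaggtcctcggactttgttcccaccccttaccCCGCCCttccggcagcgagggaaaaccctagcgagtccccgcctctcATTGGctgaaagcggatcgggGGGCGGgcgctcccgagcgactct
The 3 CCAAT boxes of Fasn lay 90, 62 and 59 bases before the start, the last 2 of them sharing letters on opposite strands. Mvd had CCAAT boxes at 60 and 27 bases and Ebp at 170 and 55 bases, each with 1 GGGCGG. The windows of Mvk, Srebf2, Lss and Acat2 and all 3 of Dhcr7 overlap annotated exons and are not printed.

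Levels per transcript length spread widely within each arm. Averaged over the 12 libraries, farnesyl diphosphate synthase (Fdps, 219 FPKM), which makes the precursor of both sterols and prenyl anchors, the desaturase Scd2 (118 FPKM) and the C4-methyl sterol oxidase Msmo1 (104 FPKM) had the highest means. The order was not the same in both tumours: Scd2 averaged 205 and 204 FPKM in B16F10 RFP+ and RFP- cells but 30.5 and 31.8 FPKM in MC38, below Msmo1 (68.3 and 73.7 FPKM) and Ebp (42.0 and 48.1 FPKM). The elongase Elovl6 (3.02 FPKM), acetyl-CoA carboxylase Acaca (3.24 FPKM) and the keto-reductase Hsd17b7 (3.40 FPKM) had the lowest means over all libraries, although Elovl6, at 5.32 FPKM in B16F10 RFP+ cells, was above both there. Within the sterol arm the first oxygenation step, Sqle, averaged 54.9 FPKM and the next, the cyclase Lss, 7.17 FPKM. The SREBP genes themselves were at middle levels, Srebf1 at 23.7 and Srebf2 at 28.7 FPKM. Overlapping exons of other genes, whose reads could be shared because the strand setting of the counting is not given in the sources used here, touch 11 of the 29 genes. Among them are Fdft1 with Ctsb, Cyp51 with Akap9 and Srebf1 with Rai1 on the other strand. On the same strand are Fdps with Gm43738 and Tm7sf2 with Vps51. The rest are Hmgcs1, Idi1, Lss, Scap, Elovl6 and Scd2. The levels of all 11 are therefore uncertain, as are those of the neighbouring near-copies Scd1 and Scd2 where reads fit both.

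**Figure D1:**
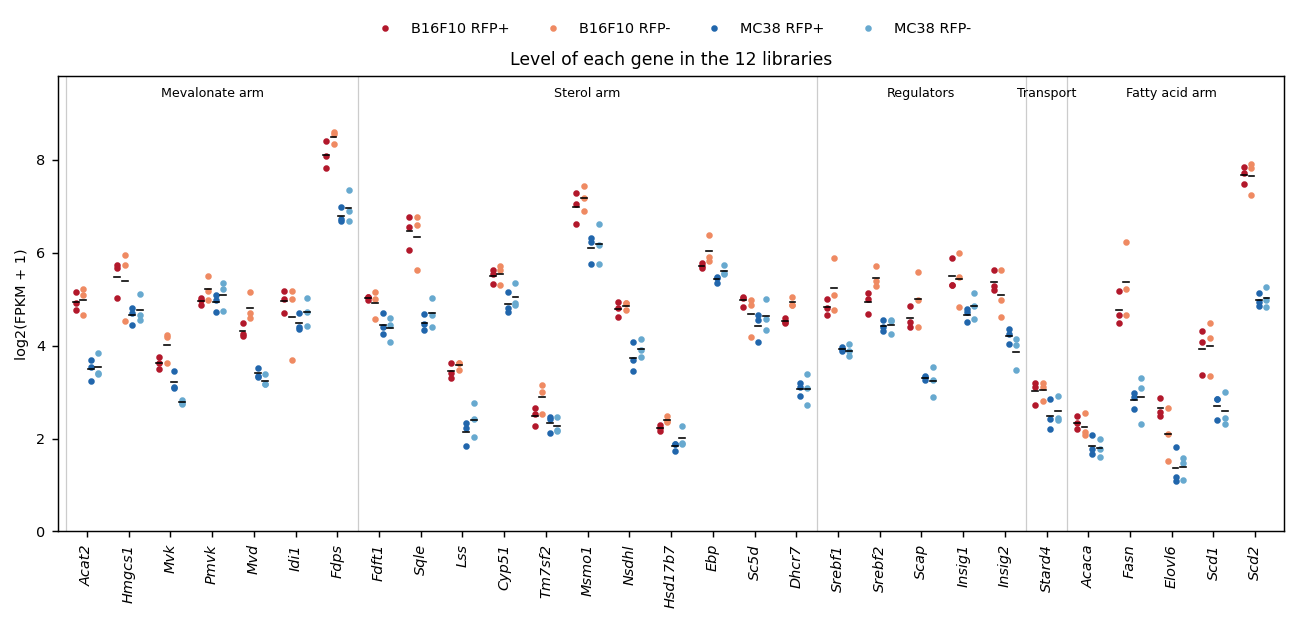
Level of each of the 29 genes, as log2(FPKM + 1), in the 12 libraries, ordered by role; each point is 1 library, colours are the 4 groups of tumour and gate, and bars are group means. The B16F10 points lie above the MC38 points for most genes, widest for Scd2, while points of both gates of a tumour intermingle.

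The first question was whether RFP+ and RFP- macrophages differ in these pathways within a tumour. In B16F10, 0 of the 29 genes passed the threshold (limma on log2(FPKM + 1), two-sided, Benjamini-Hochberg adjusted p under 0.05 over 11808 genes), where 0.178% of all genes did. With the library number as a block the count was also 0, against 1.36% of all genes. At an unadjusted p under 0.05 there were 3 genes, Srebf2, Mvd and Dhcr7, all with lower means in RFP+ cells (9.82% of all genes), and 7 with the block (18.4% of all genes). The 29 log2 differences ran from -0.59 to 0.56 with a median of -0.08, beside -0.01 over all genes, and 19 of them were negative. The groups did not overlap for 5 genes, Mvd, Hsd17b7, Ebp, Dhcr7 and Srebf2, all lower in RFP+ cells, or 17.2% of the 29 (6.22% of all genes did so lower and 5.72% higher). Their 95% intervals lay within 1 log2 unit either way for 26 genes, all but Idi1, Fasn and Elovl6. The signs rest on the scaling: after scaling to the macrophage core genes 9 of the 29 were negative in B16F10, 6 in MC38 and 3 in the mean of both, with medians of 0.25, 0.08 and 0.17 where those of all genes were 0.30, 0.14 and 0.23.

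Markers of other cells moved between the same gates. Of 7 dendritic cell genes 6 had lower means in RFP+ cells in B16F10 (median -0.61) and 7 in MC38 (median -0.22), with 0 past the threshold in limma without the block in either. With the block 1 of the 7 fell in B16F10 (limma adjusted p = 0.00472) and 0 in MC38. Over both tumours 1 of the 7 fell, the chemokine receptor gene Xcr1 (-0.85 ± 0.15, limma adjusted p = 0.031), and Ccr7 also passed with the block (adjusted p = 0.00462). All 8 listed dendritic cell genes, of which 7 entered the fit, summed to 8.04 to 17.3 FPKM in RFP+ and 17.97 to 53.3 FPKM in RFP- cells of B16F10, and 17.2 to 41.7 against 28.0 to 71.2 FPKM in MC38. A single gene could hold much of a sum: Ccr7 was 39.6 of 53.3 FPKM in B16F10 RFP- 11, and Cd209a 23.5 of 38.1 FPKM in B16F10 RFP- 3. All 4 neutrophil genes in the fit had lower means in RFP+ cells in B16F10 (median -0.59) and 3 of 4 in MC38 (median -0.06). With the block 1 neutrophil gene fell in B16F10 (limma adjusted p = 0.0150) and 0 in MC38. Medians were -0.67 in B16F10 and -0.03 in MC38 for 3 T cell genes, and -0.60 and -0.23 for 2 B cell genes. None of these T and B cell genes passed, without or with the block. The macrophage core genes had a median of 0.39 in B16F10 and 0.04 in MC38, with 0 of 13 past the threshold and 2 higher with the block in B16F10. Over both tumours 3 of the 13 were higher with the block and 0 without it (median 0.22). The part of all these markers in the values of the 29 genes was not tested.

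In MC38, limma placed 0 of the 29 genes past the threshold without or with the block, where 0.0254% and 0.44% of all genes passed. Mvk was the 1 gene with an unadjusted p under 0.05, without and with the block (3.35% and 6.09% of all genes). The log2 differences ran from -0.27 to 0.43 with a median of -0.07 (0.0017 over all genes), 19 were negative, and all 29 intervals lay within 1 log2 unit. Without overlap between groups, 1 gene was higher (Mvk; 6.33% of all genes) and 2 lower (Hsd17b7 and Ebp; 4.98% of all genes) in RFP+ cells. Averaged over both tumours, 0 genes passed without or with the block (0.449% and 1.92% of all genes), with 3 and 5 at an unadjusted p under 0.05 (7.45% and 13.3%), and the median was -0.10 beside -0.0023 over all genes. Every one of these 29 mean differences had its 95% interval within 1 log2 unit of 0. Whether the gate difference itself differed between tumours was tested as an interaction: 0 of the 29 passed without or with the block (0% and 0.0339% of all genes), and 3 and 2 had an unadjusted p under 0.05 (3.85% and 8.55%). For the interaction only 15 of the 29 intervals lay within 1 log2 unit, so differences of this size between tumours lie inside the intervals of the other genes.

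**Figure D2:**
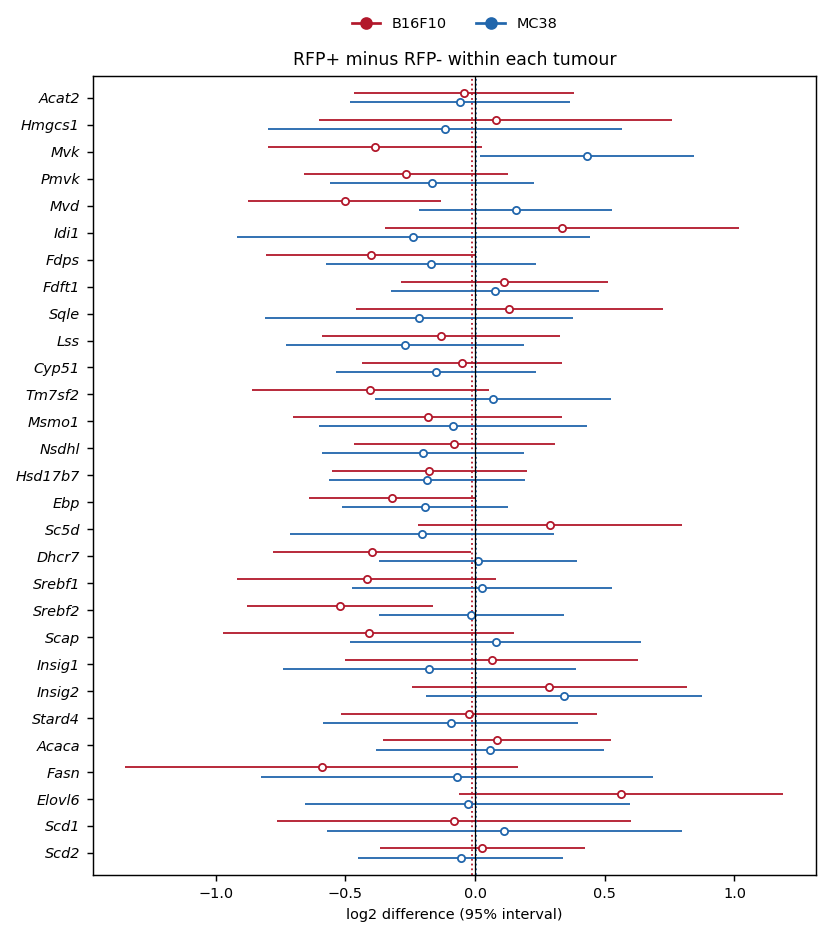
RFP+ minus RFP- log2 difference of each gene within B16F10 and within MC38, with 95% intervals from limma; open circles mark genes not past the adjusted threshold, the solid line is 0 and dotted lines are the medians of all genes. Every circle is open, and the intervals of Fasn (-1.35 to 0.17 in B16F10 and -0.83 to 0.69 in MC38) are among the widest.

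Among the regulators, the gene nearest to a gate difference in B16F10 was Srebf2, which encodes the factor that favours cholesterol genes. Srebf2 was 24.6, 34.2 and 31.1 FPKM in RFP+ and 51.2, 40.9 and 38.1 FPKM in RFP- cells of B16F10, and 22.5, 18.97 and 20.3 against 22.4, 18.1 and 21.97 FPKM in MC38. The 3 B16F10 RFP- libraries all lay above the RFP+ ones, while the MC38 gates overlapped. The log2 difference was -0.52 ± 0.17 (SE) in B16F10 (95% interval -0.88 to -0.16, limma adjusted p = 0.424, and 0.175 with the block), and -0.40 (adjusted p = 0.80) without RFP- 12, the highest library. Over both tumours it was -0.27 ± 0.12 (adjusted p = 0.633) and its interaction -0.51 ± 0.23 (adjusted p = 0.895). Insig2, 1 of the 2 genes of the retention protein, was 15.4, 19.6 and 17.9 FPKM in RFP+ and 15.03, 10.1 and 16.6 FPKM in RFP- cells of MC38, and 35.7, 48.4 and 38.02 against 23.6, 48.8 and 30.8 FPKM in B16F10. RFP+ was the higher member of all 3 MC38 pairs, but the groups overlapped, with a log2 difference of 0.34 ± 0.25 (limma adjusted p = 1, and 0.951 with the block).

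Of the 7 mevalonate genes, Mvd and Mvk came nearest, with differences of opposite sign in the 2 tumours. Mvd, the decarboxylase that makes the first isoprene unit, was 18.1, 17.3 and 21.5 FPKM in RFP+ and 34.4, 23.3 and 25.01 FPKM in RFP- cells of B16F10, and 10.5, 9.08 and 9.24 against 9.51, 8.03 and 8.01 FPKM in MC38. The B16F10 gates did not overlap, with RFP- higher, and in MC38 RFP+ was higher in each pair although RFP- 1 lay above RFP+ 2 and 3. The log2 difference was -0.50 ± 0.17 in B16F10 (limma adjusted p = 0.441, and 0.180 with the block) and the interaction -0.66 ± 0.24 (adjusted p = 0.895). Without RFP- 12 they were -0.34 (adjusted p = 0.87) and -0.50 (adjusted p = 0.9997). Mvk, the kinase acting on mevalonate itself, was 7.50, 7.57 and 9.88 FPKM in RFP+ and 6.06, 5.78 and 5.74 FPKM in RFP- cells of MC38, where the groups did not overlap. In B16F10 it was 10.3, 11.4 and 12.5 FPKM in RFP+ and 17.8, 11.3 and 17.1 FPKM in RFP- cells, and the groups overlapped through RFP- 11. Its log2 difference was 0.43 ± 0.19 in MC38 (limma adjusted p = 1, and 0.762 with the block), and its interaction was -0.82 ± 0.27 (adjusted p = 0.895, and 0.514 with the block). Fdps was 224, 336 and 269 FPKM in RFP+ and 388, 373 and 324 FPKM in RFP- cells of B16F10, and 126, 102 and 106 against 162, 118 and 101 FPKM in MC38. Both tumours had overlapping gates for Fdps, and its mean difference over both was -0.29 ± 0.13 (limma adjusted p = 0.669, and 0.254 with the block).

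In the sterol arm, Dhcr7 and Ebp were the named genes. Dhcr7, the reductase of the last step to cholesterol, was 21.9, 23.1 and 21.5 FPKM in RFP+ and 28.3, 31.99 and 28.3 FPKM in RFP- cells of B16F10, and 8.18, 6.60 and 7.60 against 9.48, 5.56 and 7.50 FPKM in MC38. The B16F10 gates were apart and tight, and the MC38 gates overlapped. Its log2 difference in B16F10 was -0.40 ± 0.18 (limma adjusted p = 0.497, and 0.222 with the block), and -0.42 (adjusted p = 0.88) without RFP- 12. Ebp, the sterol isomerase, was 53.5, 50.3 and 51.5 FPKM in RFP+ and 82.7, 58.9 and 55.8 FPKM in RFP- cells of B16F10, and 42.6, 40.01 and 43.3 against 45.7, 52.2 and 46.5 FPKM in MC38. Every RFP- library of a tumour exceeded its RFP+ libraries for Ebp, the RFP- 12 value of 82.7 FPKM being the farthest. The mean difference of -0.26 ± 0.10 (limma adjusted p = 0.591, and 0.276 with the block) did not pass, was -0.17 (adjusted p = 0.588) without RFP- 12, and was 0.01 under core scaling, where the median of all genes was 0.23. Lower values in RFP+ cells in all 6 number-matched pairs were shared by Ebp with 3 other genes, the kinase Pmvk, the cyclase Lss and Hsd17b7, and no gene was higher in all 6. Such counts of directions, made on the unscaled FPKM, were not tested and were not made over all genes. Fatty acid genes had no unadjusted p under 0.05 between gates in either tumour without the block. With it Fasn, lower in RFP+ cells in 3 of 3 B16F10 pairs, had an unadjusted p of 0.0183 in limma (adjusted p = 0.211), with a difference of -0.59 and an unblocked interval of -1.35 to 0.17.

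The spread that these comparisons met was partly shared by libraries of the same number. Deviations from group means over all genes correlated at r from 0.228 to 0.443 in the 6 same-number pairs and from -0.306 to 0.0178 in the 12 pairs of different numbers, both across genes, which are not independent. Because the 3 deviations of a gene in a group cancel out, a positive r in same-number pairs itself lowers r in the other pairs. The lower range is therefore not separate evidence of pairing. Number 1 of MC38 was the highest of 3 libraries for 16 of the 29 genes in RFP+ and 20 in RFP- cells, and number 12 of B16F10 the lowest for 18 in RFP+ and 16 in RFP-. B16F10 RFP- 12 was extreme in both directions. Of the 6 B16F10 libraries it was the highest for 10 genes (Mvk, Pmvk, Mvd, Fdps, Hsd17b7, Ebp, Srebf1, Srebf2, Scap and Fasn) and the lowest for 12, among them Hmgcs1, Idi1, Sqle, Insig1, Insig2, Elovl6, Scd1 and Scd2. Such counts of highest and lowest libraries were not made over all genes. Whether they are particular to the 29 genes or a trait of the whole library was therefore not tested. Idi1, the isoprene isomerase, was 11.8, 31.2 and 35.2 FPKM in the B16F10 RFP- libraries against 24.9 to 35.1 FPKM in RFP+, while Fasn was 73.7, 24.3 and 36.05 FPKM against 21.5 to 35.1 FPKM. Without RFP- 12 the median difference between gates of B16F10 was -0.18 with 25 of 29 negative (all genes -0.0058), and without RFP+ 12 it was 0.0073 with 14 negative (all genes -0.0158). In MC38, leaving out RFP- 1 brought the median to 0.02 with 11 negative. No gene passed in any of these fits.

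**Figure D3:**
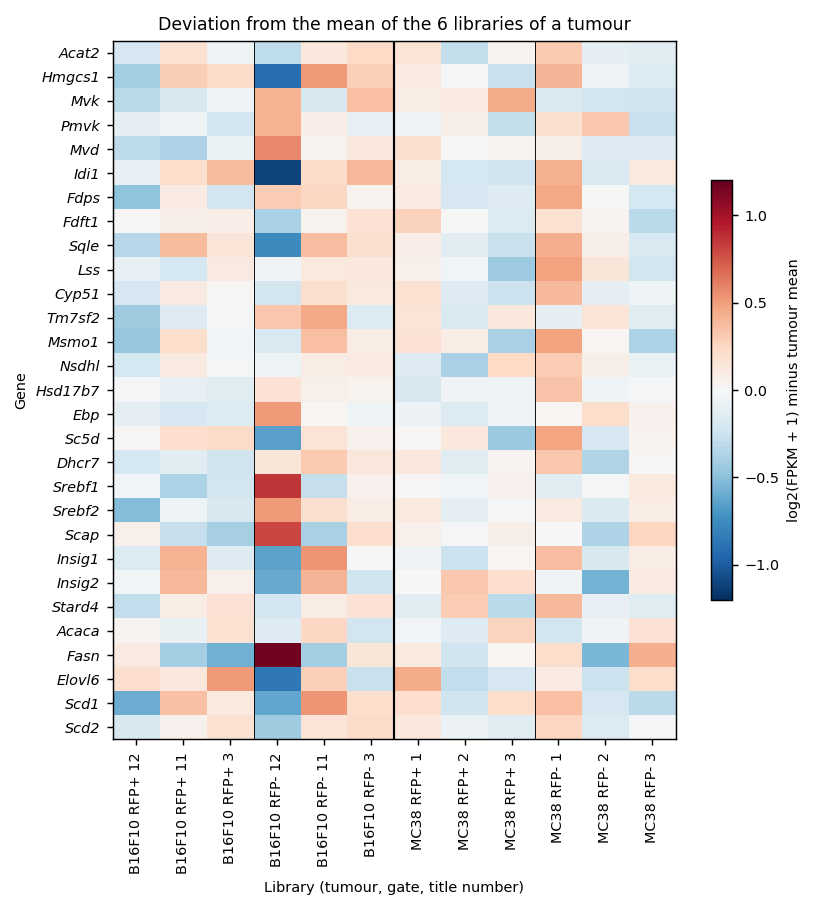
Deviation of each gene in each library from the mean of the 6 libraries of its tumour, in log2 units; rows are genes ordered by role and columns are libraries. B16F10 RFP- 12 holds both the reddest cells (Fasn, Srebf1, Scap) and the bluest (Idi1, Hmgcs1, Elovl6), and MC38 RFP- 1 is red for most mevalonate and sterol genes.

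The second question was how the same sorted population compared between tumours. In RFP+ cells 20 of the 29 genes were higher in B16F10 by limma and 0 lower, which is 69.0% of them where 35.2% of all genes were higher and 20% lower. In RFP- cells the counts were again 20 and 0, where 37.8% of all genes were higher and 21.9% lower. The block left both counts at 20, where 54.9% and 59.6% of all genes passed in either direction. The median log2 difference was 0.89 in RFP+ (all genes 0.23) and 0.99 in RFP- cells (all genes 0.23). The groups did not overlap for 25 genes in RFP+ (43.9% of all genes were higher without overlap) and for 20 in RFP- cells (39.2%). A log2 difference above 1 that passed was found for 12 genes in RFP+ (17.8% of all genes) and 14 in RFP- cells (20.6%). Of the 29, 17 passed in both gates, Elovl6, Hmgcs1 and Insig1 in RFP+ alone, Ebp, Mvk and Tm7sf2 in RFP- alone, and Acaca, Hsd17b7, Idi1, Pmvk, Sc5d and Stard4 in neither. The share of all genes that passed in both gates was not counted, so the 17 have no background beside them. A pass in 1 gate alone is not a difference between gates, which the interaction above addressed with 0 passing.

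Several other measures moved with this comparison. All 10 melanocytic genes were higher in B16F10 in both gates (median log2 7.41 in RFP+ and 7.52 in RFP-), and 12 of 13 macrophage core genes were lower (medians -2.03 and -2.33). Of 12 cell cycle genes 11 were higher in RFP+ and 10 in RFP- cells, summing to 1036 to 1289 FPKM in B16F10 and 443 to 490 FPKM in MC38. The 10 epithelial genes, which MC38 cells could bring, summed to 1.90 to 4.03 FPKM in B16F10 and 7.64 to 14.3 FPKM in MC38. Of these, 8 were under 1 FPKM in every library, with Krt19 listed at 0 throughout, Epcam at no more than 0.528 FPKM, and Cdh1 reaching 11.7 FPKM. The 8 fibroblast genes summed to 2.26 to 3.71 FPKM in B16F10 and 48.3 to 65.7 FPKM in MC38. Of these, 5 were under 1 FPKM in all MC38 libraries of each gate. Among the 4 in the fit, 3 were lower in B16F10 and 1 higher in each gate (medians -2.93 and -2.69). The 6 endothelial genes summed to 0.98 to 2.97 FPKM in B16F10 and 9.40 to 18.3 FPKM in MC38. Neutrophil genes were uneven, summing to 19.8 to 814 FPKM in B16F10 and 38.0 to 43.4 FPKM in MC38. The part of these transcripts in the synthesis gene result was not tested, and since all shallower libraries were B16F10, tumour and depth cannot be told apart. Within B16F10, number 11 had the highest melanocytic sum in each gate (10780 and 10770 FPKM), the lowest macrophage sum (7763 and 5960 FPKM) and the highest sum of the 29 genes (1466 and 1592 FPKM). Number 12 had a higher melanocytic sum than number 3 in each gate (8312 against 8194 FPKM in RFP+, 9637 against 8223 FPKM in RFP-). Its macrophage sum was also higher (14520 against 11980 FPKM, and 10360 against 10300 FPKM). The 29 genes summed lower in number 12 than in number 3 (1136 against 1340 FPKM, and 1399 against 1484 FPKM). None of these sums is scaled to the total FPKM of its library. That total was 815591 in RFP- 12 and 617750 in RFP- 3, so the order in RFP- cells depends on it. How the 3 sums go together was not tested. In MC38 the 29 genes summed to 546 to 756 FPKM.

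**Figure D4:**
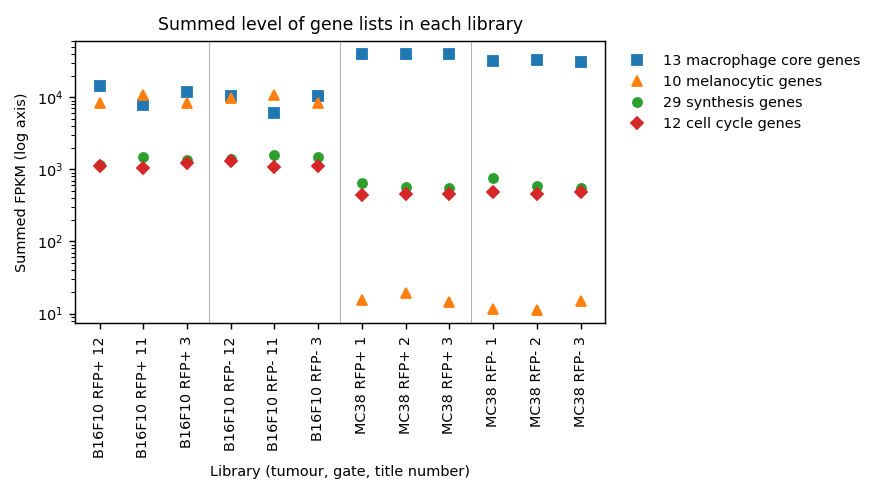
Summed FPKM of the 29 synthesis genes, 13 macrophage core genes, 10 melanocytic genes and 12 cell cycle genes in each library, on a log axis. The melanocytic sum falls from 8194 or more in B16F10 to 19.3 or less in MC38, while the synthesis and cell cycle sums are higher in B16F10 and the macrophage sum lower.

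The fatty acid arm held the widest differences. Scd2, a desaturase that makes monounsaturated fatty acids, was 177, 209.9 and 229 FPKM in B16F10 RFP+ and 34.02, 29.5 and 27.9 FPKM in MC38 RFP+ cells, and 151, 225 and 238 against 37.3, 27.6 and 30.6 FPKM in RFP- cells. The lowest B16F10 library, RFP- 12 at 151 FPKM, lay above the highest MC38 library, RFP- 1 at 37.3 FPKM. The log2 difference was 2.71 ± 0.18 in RFP+ (6.54-fold on the FPKM + 1 scale, limma adjusted p = 8.54e-08) and 2.63 ± 0.18 in RFP- cells (6.18-fold, adjusted p = 1.06e-07). Its paralog Scd1 was 9.32, 18.8 and 15.9 against 6.16, 4.26 and 6.19 FPKM in RFP+ and 9.12, 21.5 and 17.02 against 6.99, 4.41 and 3.96 FPKM in RFP- cells, without overlap in either gate and with number 12 the lowest of B16F10 in both. The differences were 1.22 ± 0.32 (limma adjusted p = 0.00517) and 1.42 ± 0.32 (adjusted p = 0.00177). Scd2 was 10.5 to 19 times Scd1 in B16F10 libraries and 4.51 to 7.74 times in MC38 libraries. Fasn, the synthase that assembles palmitate, was 35.1, 24.2 and 21.5 against 6.88, 5.18 and 6.39 FPKM in RFP+ and 73.7, 24.3 and 36.05 against 7.46, 3.99 and 8.85 FPKM in RFP- cells. The tumours did not overlap for Fasn, and RFP- 12, at 73.7 FPKM, was the highest library of all. The differences were 1.94 ± 0.35 (limma adjusted p = 0.000416) and 2.46 ± 0.35 (adjusted p = 5.28e-05), and 2.04 (adjusted p = 0.000121) in RFP- cells without RFP- 12. Elovl6 passed in RFP+ cells (1.29 ± 0.29, limma adjusted p = 0.00205) and Acaca, the carboxylase of the committed step, in neither gate (0.49 ± 0.20 and 0.47 ± 0.20, adjusted p = 0.0539 and 0.0623).

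Of the 11 sterol genes 7 were higher in B16F10 in RFP+ and 9 in RFP- cells. Sqle, the squalene epoxidase and a rate-limiting step of the sterol arm, was 65.5, 109 and 92.7 against 24.5, 21.00 and 19.1 FPKM in RFP+ and 48.6, 108 and 95.2 against 31.7, 24.4 and 20.2 FPKM in RFP- cells. The tumours did not overlap for Sqle, and number 12 was lowest of B16F10 in both gates. The log2 differences were 1.97 ± 0.28 (3.93-fold, limma adjusted p = 5.19e-05) and 1.63 ± 0.28 (3.09-fold, adjusted p = 0.00022). Dhcr7, whose values are given above, differed by 1.46 ± 0.18 (limma adjusted p = 1.60e-05) and 1.87 ± 0.18 (adjusted p = 1.62e-06), with no B16F10 library below 21.5 FPKM and no MC38 library above 9.48 FPKM. Lss, which closes the sterol rings, was 9.67, 8.85 and 11.3 against 4.02, 3.70 and 2.57 FPKM in RFP+ and 10.1, 11.3 and 11.4 against 5.75, 4.32 and 3.12 FPKM in RFP- cells. B16F10 was apart from MC38 in both gates, by 1.31 ± 0.21 (limma adjusted p = 0.000175) and 1.17 ± 0.21 (adjusted p = 0.000369). The dehydrogenase Nsdhl (1.04 ± 0.18 and 0.92 ± 0.18) and the oxidase Msmo1 (0.89 ± 0.24 and 0.99 ± 0.24) passed in both gates with limma adjusted p of 0.00664 or less. Fdft1, the squalene synthase, and the demethylase Cyp51 passed with smaller differences of 0.50 to 0.60, and each of these 4 calls was lost in 2 to 6 of 21 settings. Sc5d, the desaturase of the B ring, was 17.1 to 32.2 FPKM in B16F10 and 15.97 to 31.1 FPKM in MC38 and passed in neither gate.

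In the mevalonate arm 4 of 7 genes were higher in each gate. Acat2, the thiolase that joins the first acetyl units in the cytosol, was 26.3, 34.5 and 29.2 against 11.8, 8.43 and 10.7 FPKM in RFP+ and 24.4, 33.1 and 36.00 against 13.3, 9.64 and 9.50 FPKM in RFP- cells. The lowest B16F10 value of Acat2 exceeded the highest MC38 one, and the differences were 1.46 ± 0.20 (limma adjusted p = 3.96e-05) and 1.44 ± 0.20 (adjusted p = 3.70e-05). Fdps differed by 1.30 ± 0.19 (2.46-fold, limma adjusted p = 6.94e-05) and 1.53 ± 0.19 (2.88-fold, adjusted p = 1.49e-05). Mvd differed by 0.91 ± 0.17 (limma adjusted p = 0.0006) and 1.57 ± 0.17 (adjusted p = 5.83e-06), and by 1.41 in RFP- cells without RFP- 12. Mvk passed in RFP- cells (1.23 ± 0.19, limma adjusted p = 0.000111), and the synthase Hmgcs1 in RFP+ cells (0.82 ± 0.32, adjusted p = 0.0404), a call kept in 12 of 21 settings. Pmvk was 28.1 to 44.5 FPKM in B16F10 and 25.6 to 39.5 FPKM in MC38, with differences of 0.02 ± 0.18 and 0.12 ± 0.18. Idi1 differed by 0.47 ± 0.32 in RFP+ and -0.10 ± 0.32 in RFP- cells, the 1 negative value in either gate.

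Regulators were higher in B16F10 on both sides of the switch. All 5 passed in RFP+ cells and 4 in RFP- cells, all but Insig1 (0.58 ± 0.26, limma adjusted p = 0.07). Scap, the escort, was 27.9, 21.9 and 19.97 against 9.03, 8.56 and 9.14 FPKM in RFP+ and 47.2, 20.2 and 30.8 against 8.58, 6.45 and 10.5 FPKM in RFP- cells. RFP- 12 was the highest library for Scap, and the tumours did not overlap. The differences were 1.28 ± 0.26 (limma adjusted p = 0.00102) and 1.77 ± 0.26 (adjusted p = 7.01e-05), the second 1.47 (adjusted p = 0.00016) without RFP- 12. Srebf1, the factor that favours fatty acid genes, was 31.1, 24.3 and 27.1 against 14.2, 13.7 and 14.6 FPKM in RFP+ and 58.4, 26.03 and 32.9 against 12.6, 13.8 and 15.3 FPKM in RFP- cells, again apart and again highest in RFP- 12. It differed by 0.91 ± 0.23 (limma adjusted p = 0.00476) and 1.35 ± 0.23 (adjusted p = 0.000243), and by 1.03 (adjusted p = 0.000125) in RFP- cells without RFP- 12. Srebf2 differed by 0.51 ± 0.17 (limma adjusted p = 0.0184) and 1.02 ± 0.17 (adjusted p = 0.00016), and its RFP+ call was kept in 17 of 21 settings and lost after upper-quartile scaling (0.36, adjusted p = 0.0846). Of the calls made in a single gate, those of Ebp and Tm7sf2 were kept in 16 of 21 settings and that of Insig1 in 18. The retention gene Insig2 differed by 1.16 ± 0.25 (limma adjusted p = 0.0014) and 1.21 ± 0.25 (adjusted p = 0.000883). Stard4, which carries cholesterol between membranes, was 5.62 to 8.19 FPKM in B16F10 and 3.64 to 6.58 FPKM in MC38 and did not pass (0.52 ± 0.23 and 0.45 ± 0.23, adjusted p = 0.0673 and 0.103).

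**Figure D5:**
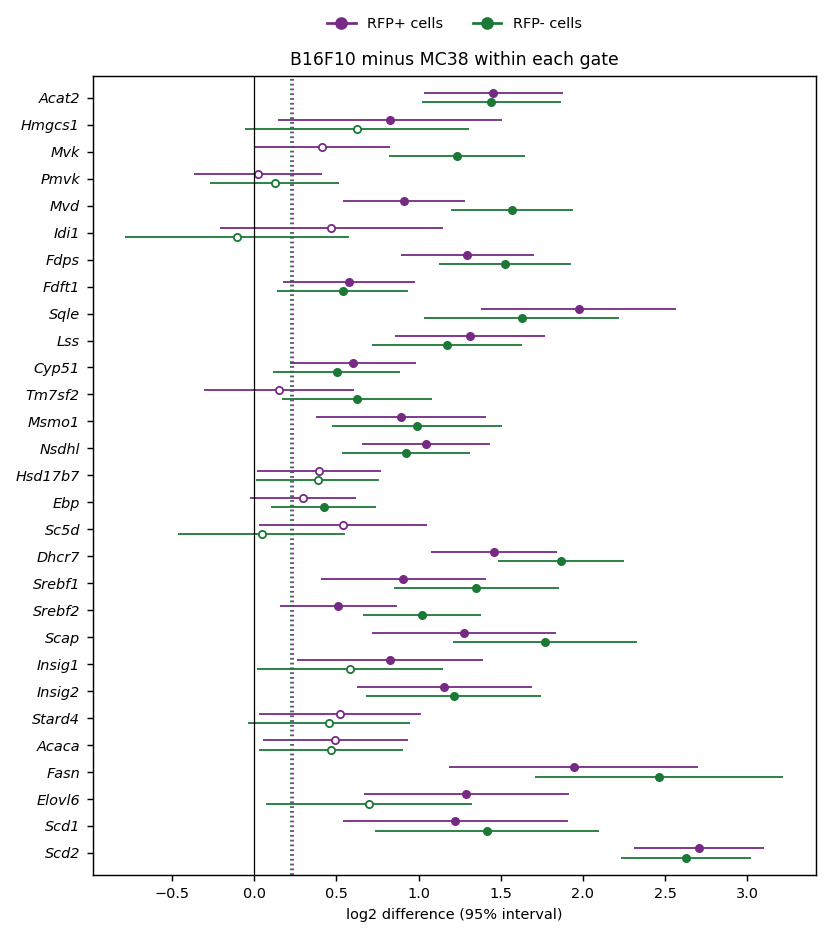
B16F10 minus MC38 log2 difference of each gene in RFP+ and in RFP- cells, with 95% intervals from limma; filled circles passed the adjusted threshold, the solid line is 0 and dotted lines are the medians of all genes (0.23 in both gates). Scd2 lies farthest right in both gates, followed by Sqle in RFP+ and Fasn in RFP- cells, with Pmvk, Idi1 in RFP- and Sc5d in RFP- nearest 0.

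How the libraries are scaled to each other moves the size of these differences. Of all calls, 63.8% in RFP+ and 63.4% in RFP- cells were higher in B16F10, against 52.8% and 52.0% after quantile normalization, 54.8% and 55.5% after upper-quartile scaling, and 98.7% and 98.6% after scaling to the macrophage core genes. Quantile normalization left 18 and 16 of the 29 genes called higher, where 28.5% and 30.2% of all genes were. Upper-quartile scaling left 15 and 16, where 28.7% and 32.2% of all genes were higher. Scaling to the macrophage core genes called all 29 higher in both gates, where 90.9% and 87.6% of all genes were. Scaling to the macrophage core genes set the median of all genes at 2.396 in RFP+ and 2.185 in RFP- cells. Relative to the median of all genes, the median of the 29 was 0.66 higher in RFP+ and 0.76 higher in RFP- cells, and from 0.502 to 0.963 and from 0.594 to 1.05 higher over 21 settings. No gene of the 29 was called lower in B16F10 in any of them. Calls in both gates in every one of the 21 settings were made for 14 genes: Acat2, Dhcr7, Fasn, Fdps, Insig2, Lss, Msmo1, Mvd, Nsdhl, Scap, Scd1, Scd2, Sqle and Srebf1. Such calls were not counted over all genes, so whether 14 of 29 exceeds the share of all genes is not known.

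Genes of the same pathways outside the 29 were counted from lists of 14 further sterol genes, 18 further fatty acid genes and 9 genes of the LXR side. Between gates 0 of each list passed by limma in any of the 4 gate comparisons, with or without the block. Within a single tumour 0 to 4 genes of a list had an unadjusted p under 0.05, where 9.82% of all genes did in B16F10 and 3.35% in MC38. The 4 were LXR genes in B16F10, 2 higher and 2 lower in RFP+ cells. In B16F10 against MC38, 6 of the 14 sterol genes were higher and 1 lower in RFP+ cells, and 7 higher and 2 lower in RFP- cells, with medians of 0.42 and 0.39 (all genes 0.23 in both). Acat1, the mitochondrial thiolase, was 87.2, 93.6 and 88.2 against 25.9, 24.2 and 29.7 FPKM in RFP+ cells, a log2 difference of 1.72 ± 0.14 (limma adjusted p = 3.75e-07), and 1.56 ± 0.14 (adjusted p = 8.38e-07) in RFP- cells. Tmem97, a sterol-responsive membrane protein, was 213, 152 and 145 against 55.9, 35.8 and 36.7 FPKM in RFP- cells (1.97 ± 0.19, adjusted p = 1.60e-06). Of the 18 fatty acid genes 9 were higher and 2 lower in RFP+ cells, and 11 and 1 in RFP- cells. These counts stand beside 35.2% and 37.8% of all genes higher and 20% and 21.9% lower. Core scaling put 14 of 14 sterol and 18 of 19 fatty acid genes higher in each gate, but also 90.9% and 87.6% of all genes.

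Most genes of the LXR side were lower in B16F10 on the FPKM scale, a direction that scaling to the macrophage core genes turned. In RFP+ cells 1 of the 9 genes was higher and 6 lower, and in RFP- cells 2 and 7 (1 and 7 with the block), with medians of -1.71 and -1.60. After quantile normalization or upper-quartile scaling 1 was higher and 6 or 7 lower, whereas core scaling gave 5 higher and 0 lower in each gate, with medians of 0.74 and 0.72 beside 2.396 and 2.185 over all genes. Core scaling did not bring the macrophage core genes themselves to 0 in RFP+ cells. Of these 13 genes 8 were then higher and 0 lower in RFP+ (median 0.56), and 4 higher and 1 lower in RFP- cells (median 0.10). Mylip, an LXR-induced ubiquitin ligase, was 4.81, 4.43 and 2.91 against 16.7, 16.7 and 21.6 FPKM in RFP+ and 2.19, 3.21 and 3.19 against 19.4, 15.9 and 21.1 FPKM in RFP- cells. No B16F10 library was above 4.81 FPKM and no MC38 library below 15.9 FPKM, with differences of -1.95 ± 0.21 (limma adjusted p = 5.22e-06) and -2.36 ± 0.21 (adjusted p = 8.42e-07). Under core scaling Mylip was at 0.39 and -0.20 and passed in neither gate (adjusted p = 0.281 and 0.582). Cyp27a1, which makes an oxysterol ligand of LXR, was 6.59, 4.60 and 2.76 against 24.7, 20.4 and 26.7 FPKM in RFP+ cells (-2.19 ± 0.25, limma adjusted p = 1.01e-05), and at 0.18 (adjusted p = 0.597) under core scaling. Lpcat3, an LXR target that builds polyunsaturated phospholipids, was higher, at 61.1, 68.4 and 47.2 against 22.98, 22.6 and 22.6 FPKM in RFP+ cells (1.32 ± 0.15, adjusted p = 6.68e-06) and by 1.28 ± 0.15 (adjusted p = 7.48e-06) in RFP- cells. Several of these genes, Cyp27a1 and the LXR gene Nr1h3 among them, are expressed by macrophages, and the macrophage core genes were lower in the same libraries by medians of -2.03 and -2.33. Their part in the LXR result was not tested.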

How the data were processed

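Bulk RNA-seq of 12 libraries, 4 groups of 3, was used as deposited. Each library came as 1 table of symbols with FPKM values, the unit per the file headers. Per the labels, RNA was taken up in TRI Reagent, cDNA was made with SMART-Seq HT and libraries with Nextera XT. The tools named are Cuffdiff 2.2.1, SAMtools 0.1.18, TopHat2 2.1.1 and Bowtie2 2.2.8, with build mm10, per the submitters' processing notes. For the annotation, the strand setting and any scaling across libraries, what was done is not given in the sources used here. Read counts are not used here, so depth is known only as a ratio between libraries and no counting interval is given.

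Values were analysed as log2(FPKM + 1) for the 11808 genes that reached 1 FPKM in 3 or more libraries, with limma 3.58.1 in R 4.3.3 (lmFit, eBayes with a trend; 4 group means, 8 residual degrees of freedom), two-sided, with Benjamini-Hochberg adjustment over all genes kept and a threshold of 0.05. The 6 comparisons were the gates within each tumour, their mean and difference, and the tumours within each gate. Fold changes are on the FPKM + 1 scale and understate low genes. Title numbers recur in both gates of a tumour, and same-number libraries deviated together (r over 0.1 in all 6 pairs), so a blocked fit is given beside the counts (a fixed block with 4 residual degrees of freedom between gates, a random one with correlation 0.291 between tumours). The labels do not link libraries to animals, so p-values measure the spread between libraries, which may be partly technical. Alternatives were 2 other pseudocounts (0.1 and 5), 2 other filters (none, and 5 FPKM), 3 scalings, the block and each library left out. The limma script was tested on simulated data.

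The 29 genes, the other gene lists and the markers were chosen with earlier results of these data known. Values in every library are given for the 10 genes with the largest difference among those past the threshold, or the 3 with the smallest p where none passed, with a mean of at least 5 FPKM; up to 4 other pathway genes per comparison are named. Nr1h3, Krt19, Epcam, Cdh1, Xcr1, Ccr7, Cd209a, Csf1r, Adgre1, Pmel, Dct and Tyrp1 were named as examples after their values were seen. Coordinates are from GENCODE M21 and RefSeq on GRCm38, the assembly that mm10 names. Python 3.11.15, pandas 2.3.3 and matplotlib 3.10.9 made promoter counts and plots.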

Additional observations from a re-analysis of the deposited data

Results flagged for a closer look

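Mvd, the mevalonate decarboxylase gene, had opposite directions between gates in the 2 tumours. RFP+ was lower than RFP- in 3 of 3 number-matched pairs of B16F10 and higher in 3 of 3 pairs of MC38. The difference of the differences was -0.66 ± 0.24 (SE), and limma's test of it did not pass (adjusted p = 0.895, and 0.528 with the block). Without B16F10 RFP- 12 it was -0.50.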

How the results depend on the processing

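No synthesis gene passed between gates in any of 21 settings, and 0 were called lower between tumours. Over all 12 left-out libraries the genes called between tumours ran from 17 to 26 in RFP+ and 16 to 22 in RFP- cells. Of the named values, 2 reversed, both for Ebp after scaling to the macrophage core genes: 0.0034 within MC38 and 0.012 over both tumours, where this scaling moved the medians of all genes to 0.136 and 0.225. Counts over all genes were less steady, and the cause was not tested. Within B16F10 the 21 genes became 10 with a pseudocount of 0.1, 7 with no filter, 38 with core scaling, 160 with the replicate block and 4 (without RFP- 12) to 91 (without RFP- 11) with 1 library left out. Within MC38 the 3 became 11 with a pseudocount of 5, 6 with quantile normalization, 1 with core scaling, 52 with the block and 1 (without RFP- 1) to 8 (without RFP+ 3) with 1 library left out. For the mean the 53 became 13 with no filter, 227 with the block and 19 (without MC38 RFP+ 1) to 81 (without B16F10 RFP- 11) with 1 left out. For the interaction the 0 became 2 with no filter, 4 with the block and 0 to 1 with 1 left out. Between tumours core scaling gave 11414 genes in RFP+ (6523 without it) and 11010 in RFP- cells (7051), and 5653 to 7341 and 6304 to 6973 passed with 1 library left out. The block changed no call of a synthesis gene. With 1 library left out of a group of 3, all groups share 1 spread. Depth limits low genes of B16F10 most, since 1 read is worth 3.02 to 3.62 times as much FPKM there.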
